A study of Mus musculus with 22 samples.

Results

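Erbb3, Pmp22, Mbp, Mag, Prx and Cnp are genes of Schwann cells, the glial cells that wrap the axons of peripheral nerve, and of the myelin they make. Every probe set annotated to 1 of these 6 symbols was taken, and 9 of the 12488 probe sets on the array were found for 5 of the genes, out of 8252 gene symbols on the array. Prx had no such probe set, and its expression was not analysed here. After the dimmest 30% of probe sets were left out, 5 of the 9 probe sets remained for testing, and they stand for 4 genes, Erbb3, Pmp22, Mbp and Mag.

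A Schwann cell reads neuregulin on the axon surface through the receptors Erbb2 and Erbb3, and this signal is known to govern its survival and how much myelin it forms. Compact myelin is held together by membrane proteins such as Pmp22 and by the basic protein Mbp on the cytoplasmic side. Mag and Cnp belong to the parts of the sheath that are not compacted, Mag facing the axon and Cnp in the cytoplasm. A piece of muscle can carry these RNAs in the nerve branches that run through it. Whether other cells of the muscle also carried them was not tested.

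The study measured total RNA of leg muscle and of extraocular muscle (EOM, which turns the eyeball) in Balb and SJL mice at 10 and 12 months of age. SJL mice carry a mutation of dysferlin, a protein of muscle membrane repair, and Balb served as the other strain. Each of the 8 groups of strain, muscle and age had 3 Affymetrix arrays, except the 12-month EOM groups of Balb and of SJL, which had 2. The labels give neither sex, nor the leg muscle taken, nor whether each array had its own animal, and p-values measure only the spread between these samples. Comparing EOM with leg asks how nerve and glial transcripts differ between muscles, and comparing SJL with Balb asks whether they differ with strain.

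Values are linear intensities scaled by the authors to a common trimmed mean, and differences are given on the log2(intensity + 16) scale, which understates changes of dim probe sets. Adjusted p-values are from limma with Benjamini-Hochberg adjustment over all 8695 probe sets tested, at a threshold of 0.05. The median intensity of an array was 423.1 to 561.0 at 12 months and 565.8 to 650.5 at 10 months, without overlap. The 4 replicate 1 arrays at 10 months had 3 prime to 5 prime ratios of Actb from 5.05 to 53.7, against 0.847 to 1.93 on the other 18 arrays, and calls and list counts that differ on those 18 arrays are given beside the results they touch. Those 18 arrays were not alike in every such ratio. That of Gapdh was 0.0976 to 1.44 in Balb leg, 0.733 to 1.54 in Balb EOM, 0.0534 to 0.761 in SJL leg and 0.87 to 6.71 in SJL EOM, so in SJL it was higher on every EOM array than on every leg array. Its part in the differences between muscles was not tested. Bulk RNA cannot tell more Schwann cells from more RNA per Schwann cell.

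The bases just before start sites were read for letters that Sox10 and Egr2, the transcription factors that drive myelin genes, could bind. Of Erbb3, Pmp22 and Mbp, which rose in EOM, only Pmp22 had such windows. Mag did not pass, Cnp was too dim to test and Prx had no probe set. Sequence elsewhere, such as farther upstream or within the genes, was not searched. RefSeq promoter sequences of GRCm38.p6 were found for Pmp22 (4 start sites), Mag (3), Cnp (1) and Prx (1), and the 250 bases before each start were searched on both strands. The letters searched were ACAAAG, the core that Sox proteins bind, GCGNGGGCG for Egr proteins and TATAAA. One window each of Mag (chr7:30914923-30915172, minus strand) and Cnp (chr11:100574689-100574938, plus strand) and 2 of Pmp22 (chr11:63128732-63128981 and chr11:63131207-63131456, plus strand) are printed 5′ to 3′, with a match to ACAAAG or its reverse complement in capitals:
Mag, first start site: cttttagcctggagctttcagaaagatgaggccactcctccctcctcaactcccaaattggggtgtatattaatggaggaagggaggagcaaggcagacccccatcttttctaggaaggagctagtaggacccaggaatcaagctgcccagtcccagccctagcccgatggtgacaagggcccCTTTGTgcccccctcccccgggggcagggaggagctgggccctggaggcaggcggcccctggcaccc
Cnp: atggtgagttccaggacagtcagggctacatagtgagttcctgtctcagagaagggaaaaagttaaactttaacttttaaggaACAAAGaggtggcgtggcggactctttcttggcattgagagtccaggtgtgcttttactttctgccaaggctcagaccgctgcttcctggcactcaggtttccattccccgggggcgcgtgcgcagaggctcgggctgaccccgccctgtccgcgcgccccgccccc
Pmp22, first start site: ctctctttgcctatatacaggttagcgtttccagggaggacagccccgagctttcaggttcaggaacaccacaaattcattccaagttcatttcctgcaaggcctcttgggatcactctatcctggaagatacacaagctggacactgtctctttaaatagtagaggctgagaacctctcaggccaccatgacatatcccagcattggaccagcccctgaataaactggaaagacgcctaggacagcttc
Pmp22, second start site: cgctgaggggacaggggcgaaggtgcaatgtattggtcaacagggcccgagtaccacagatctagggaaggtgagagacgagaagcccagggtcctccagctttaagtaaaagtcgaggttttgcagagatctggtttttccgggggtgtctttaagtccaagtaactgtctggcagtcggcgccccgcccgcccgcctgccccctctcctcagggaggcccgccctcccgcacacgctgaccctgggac

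The Sox core letters occurred 1 time before the Cnp start and 1 time before each of the first and second Mag starts, and in none of the 4 Pmp22 windows or the Prx window. Of all 32851 windows of this length, 16.5% held ACAAAG, 4.7% held GCGNGGGCG and 12.4% held TATAAA. Neither GCGNGGGCG nor TATAAA was found in the windows of Pmp22, Mag, Cnp or Prx. A match is a description of the letters only, and Pmp22, which rose in EOM, and Mag, which did not pass, are read here side by side without a test.

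Transcripts of the receptor Erbb3 and of the myelin proteins Pmp22 and Mbp were higher in EOM than in leg in both strains, by 2.12 to 4.85-fold. Of the 4 genes tested, Erbb3, Pmp22 and Mbp passed as higher in EOM in each strain, and none was lower. Over all probe sets tested, 8.72% were higher and 4.86% lower in EOM in Balb, and 6.14% higher and 3.42% lower in SJL. The median difference of the 4 genes was 1.49 in Balb and 2.08 in SJL on the log2 scale, beside 0.10 and 0.04 over all probe sets. These genes, and the lists below, were chosen with earlier results of these data known. Their excess over all probe sets is therefore a description and not a test. Mag, the adhesion protein facing the axon, did not pass in either strain.

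Erbb3, the neuregulin receptor, was measured well above the dim limit by probe set 96771_at. In Balb leg its intensity was 813.6, 543.7 and 732.5 at 10 months and 363.1, 553.4 and 432.6 at 12 months. In Balb EOM it was 2752.9, 2088.2 and 2221.4 at 10 months and 2277.9 and 2585.1 at 12 months. Every Balb EOM array thus stood above every Balb leg array. In SJL leg the intensity was 921.6, 564.4 and 681.4 at 10 months and 625.2, 459.1 and 411.9 at 12 months. In SJL EOM it was 3383.9, 3167.6 and 2309.0 at 10 months and 3037.4 and 2832.3 at 12 months. The lowest of all 10 EOM arrays, 2088.2 in Balb, lay above the highest of all 12 leg arrays, 921.6 in SJL. Only 1.38% of the probe sets tested had all EOM arrays above all leg arrays in this way. The difference was 2.08 (SE 0.19, adjusted p = 8.22e-07) in Balb and 2.28 (SE 0.19, adjusted p = 4.01e-07) in SJL, a 4.22-fold and 4.85-fold higher level. By size of the difference Erbb3 ranked 84 of 8695 probe sets in Balb and 45 in SJL.

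Pmp22, the compact myelin protein whose gene dosage underlies inherited neuropathies, followed the same course with probe set 102395_at. Its Balb leg intensity was 2265.2, 1326.8 and 1911.0 at 10 months and 2236.0, 2168.5 and 2167.5 at 12 months. In Balb EOM it was 7987.9, 6464.8 and 6392.2 at 10 months and 7145.9 and 8704.9 at 12 months. The 12-month leg arrays of Balb lay close together, while the 10-month leg arrays spread more widely. In SJL leg it was 3303.4, 1400.8 and 1165.2 at 10 months and 2398.6, 2855.5 and 2792.4 at 12 months. In SJL EOM it was 10624.0, 9562.6 and 8029.8 at 10 months and 13637.5 and 9616.5 at 12 months. The highest leg array, 3303.4, was the 10-month SJL replicate 1, one of the arrays with a high Actb ratio, and it still lay below the lowest EOM array, 6392.2. The difference was 1.89 (SE 0.22, adjusted p = 1.73e-05) in Balb and 2.25 (SE 0.22, adjusted p = 3.02e-06) in SJL. Fibroblasts and endothelium are also known to make Pmp22, so its RNA does not mark Schwann cells alone.

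**Figure D1:**
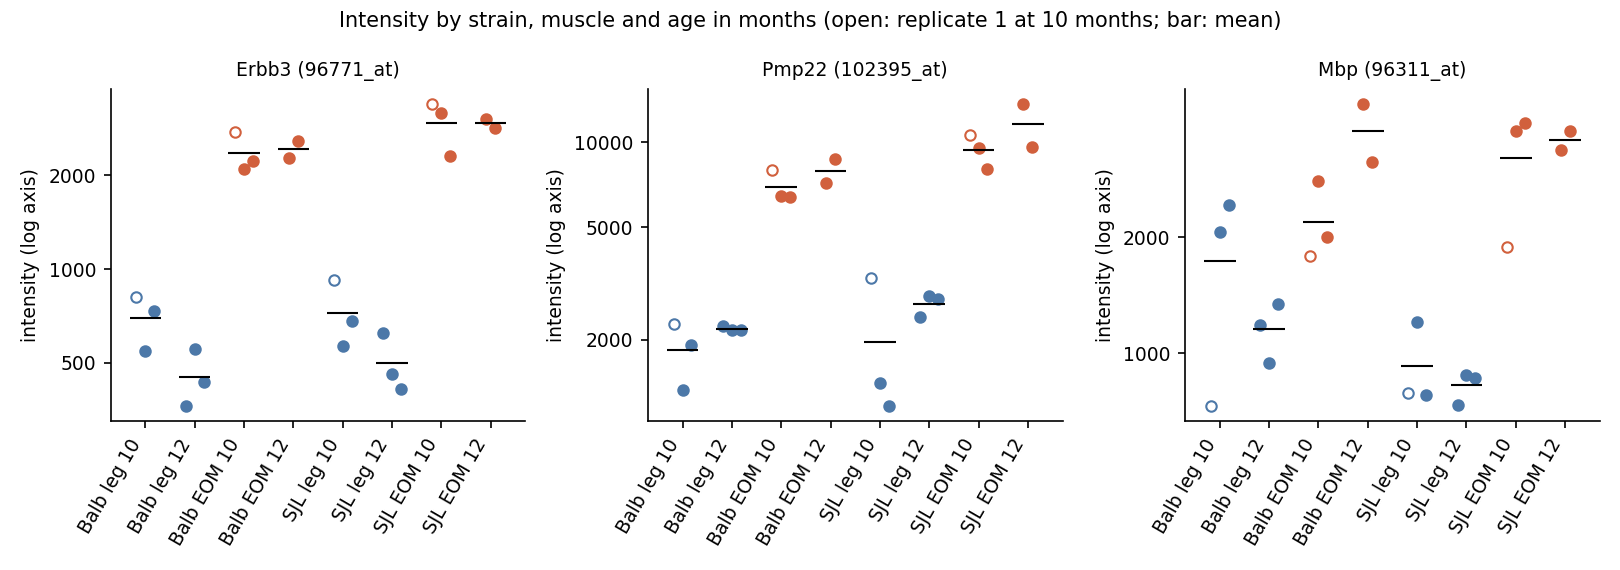
Intensity of Erbb3, Pmp22 and Mbp on each of the 22 arrays (log axes), by strain, muscle and age in months, with leg in blue, EOM in orange, open circles for replicate 1 at 10 months and bars for group means. All EOM points of Erbb3 (2088.2 and above) and Pmp22 (6392.2 and above) lie above all leg points, while for Mbp the 10-month Balb leg arrays at 2059.6 and 2428.6 reach into the EOM range.

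Mbp, the basic protein that brings the cytoplasmic faces of the membrane together, rose in EOM by probe set 96311_at with more spread in Balb. In Balb leg its intensity was 729.0, 2059.6 and 2428.6 at 10 months and 1183.2, 941.1 and 1345.1 at 12 months. In Balb EOM it was 1782.3, 2801.1 and 2006.5 at 10 months and 4431.5 and 3135.1 at 12 months. Replicates 2 and 3 of 10-month Balb leg were the only leg arrays that reached the EOM range. In SJL leg it was 786.7, 1208.1 and 777.8 at 10 months and 735.1, 876.0 and 862.6 at 12 months. In SJL EOM it was 1888.5, 3765.5 and 3958.0 at 10 months and 3368.7 and 3783.1 at 12 months. The difference was 1.08 (SE 0.28, adjusted p = 0.0154) in Balb and 1.91 (SE 0.28, adjusted p = 0.000207) in SJL. Without replicate 1 of 12-month Balb EOM, the Balb difference was 0.96 and no longer passed (adjusted p = 0.0929). Of the 10 EOM arrays, 7 lay above the highest leg array.

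A second Mbp probe set, 96310_at, did not show this difference. Its values ran from 260.7 to 977.5 in Balb leg, from 429.8 to 1841.5 in Balb EOM, from 325.5 to 1360.3 in SJL leg and from 328.8 to 1125.9 in SJL EOM. EOM minus leg was 0.51 (SE 0.26, adjusted p = 0.227) in Balb and -0.10 (SE 0.26, adjusted p = 0.882) in SJL. The Mbp probe sets therefore disagree, and over the 22 arrays their log2 values correlated at r = 0.09. The Mbp locus is known to make other transcripts besides those of the myelin protein, and which of them each probe set reads was not tested.

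Mag was measured by probe set 161846_r_at at 423.1 to 769.7 in Balb leg, 704.1 to 835.0 in Balb EOM, 342.8 to 1139.5 in SJL leg and 409.9 to 1090.3 in SJL EOM. The muscles overlapped in both strains over the 2 ages. In Balb at 12 months the 2 EOM arrays stood above the 3 leg arrays. With so few arrays, and no share of all probe sets given beside it, this is a description only. No EOM array lay above the highest of all 12 leg arrays, 1139.5 in SJL. EOM minus leg was 0.42 (SE 0.19, adjusted p = 0.166) in Balb and 0.08 (SE 0.19, adjusted p = 0.872) in SJL. Cnp, an enzyme of uncompacted myelin, was dim, with its single probe set between 12.8 and 545.3 over the arrays and its muscles overlapping. With no filter on dim probe sets, Cnp differed by 0.71 (adjusted p = 0.49) in Balb and 0.57 (adjusted p = 0.654) in SJL. The other probe sets of Erbb3 (101776_at, 18.2 to 122.3), Mag (102405_at, 24.7 to 151.6) and Pmp22 (161442_at, 9.2 to 81.5) were also left out as dim, and none passed in either strain without the filter. Over the 22 arrays each correlated weakly with the brighter probe set of its gene, at r = 0.21 for Erbb3, 0.09 for Mag and 0.33 for Pmp22. How well 161846_r_at reads Mag was not tested.

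**Figure D2:**
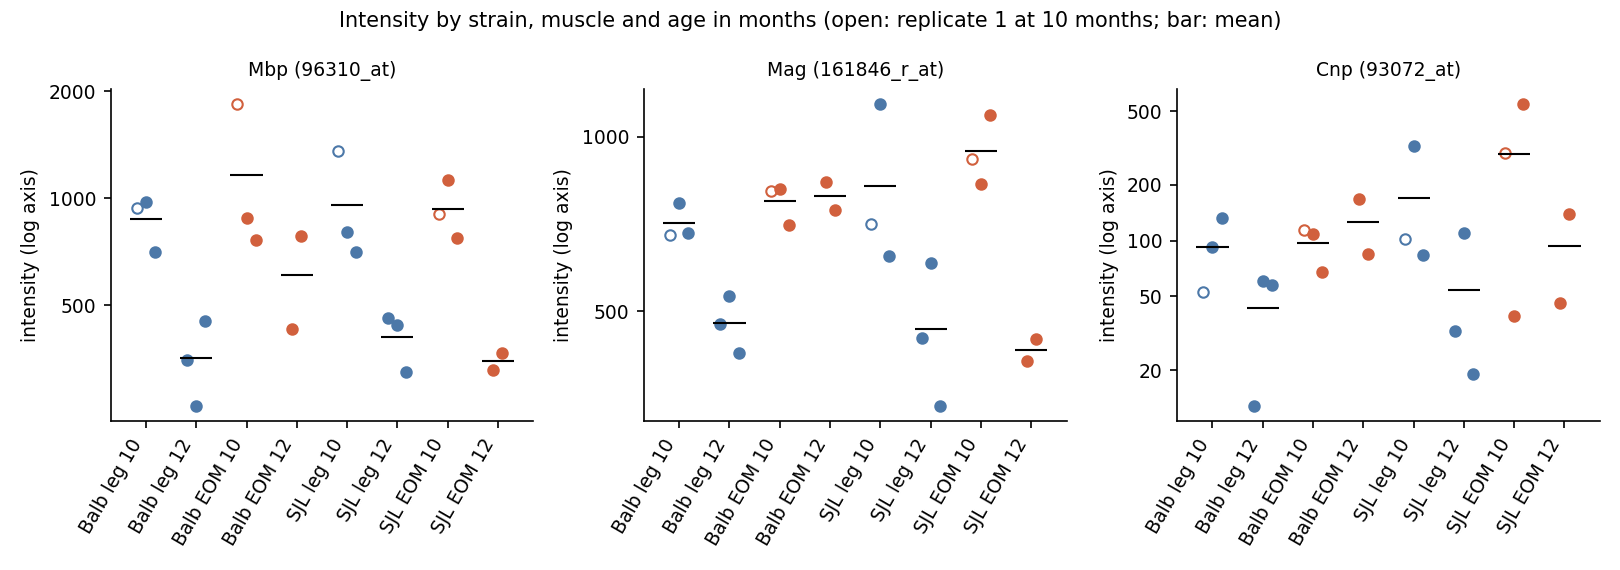
Intensity of the second Mbp probe set, Mag and Cnp on each of the 22 arrays (log axes), by strain, muscle and age in months, with leg in blue, EOM in orange, open circles for replicate 1 at 10 months and bars for group means. Leg and EOM points overlap in all 3 panels, and Cnp, at 12.8 to 545.3, was too dim to be tested.

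Within each strain and age, Erbb3 and Pmp22 were higher in EOM each time. The Erbb3 difference was 1.74 (SE 0.25, adjusted p = 0.0004) at 10 months and 2.41 (SE 0.28, adjusted p = 4.35e-05) at 12 months in Balb. In SJL it was 2.02 (SE 0.25, adjusted p = 9.94e-05) and 2.54 (SE 0.28, adjusted p = 3.24e-05). The Pmp22 difference was 1.94 (SE 0.30, adjusted p = 0.000864) and 1.84 (SE 0.34, adjusted p = 0.00269) in Balb, and 2.40 (SE 0.30, adjusted p = 0.000105) and 2.09 (SE 0.34, adjusted p = 0.00114) in SJL. For Mbp 96311_at the 10-month Balb difference, 0.48 (SE 0.38, adjusted p = 0.595), did not pass. Its other differences did, at 1.69 (SE 0.42, adjusted p = 0.0211) in Balb at 12 months and at 1.73 (SE 0.38, adjusted p = 0.0136) and 2.10 (SE 0.42, adjusted p = 0.00758) in SJL. Neither Mag nor Mbp 96310_at passed in any of these 4 cases. Their largest differences were in Balb at 12 months, 0.72 for Mag (SE 0.28, adjusted p = 0.167, and 0.0248 with array quality weights) and 0.72 for Mbp 96310_at (SE 0.39, adjusted p = 0.351), and in the other cases they ran from -0.08 to 0.24 for Mag and from -0.21 to 0.31 for Mbp 96310_at. The share of all probe sets called higher was 2.63% and 3.88% in Balb and 2.59% and 1.96% in SJL, at 10 and 12 months.

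These calls within 1 age rest on the spread pooled over the 8 groups. Fitted on the arrays of the groups compared alone, Erbb3 reached an adjusted p of 0.0642 in Balb at 10 months and 0.126 in SJL at 10 months, and in the latter Pmp22 reached 0.151 and Mbp 0.263. The Pmp22 difference in Balb at 12 months was 1.70 (adjusted p = 0.057) without replicate 2 of 12-month Balb EOM, and Mbp had an adjusted p of 0.0818 there. The Mbp call in Balb at 12 months was also lost without replicate 1 of 12-month Balb EOM (adjusted p = 0.245) and without replicate 2 of 12-month Balb leg (adjusted p = 0.084). In SJL it was lost at 10 months without leg replicate 3 (0.0682), EOM replicate 2 (0.0583) or EOM replicate 3 (0.0601), and at 12 months without EOM replicate 1 (0.0739) or EOM replicate 3 (0.101), each an adjusted p.

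**Figure D3:**
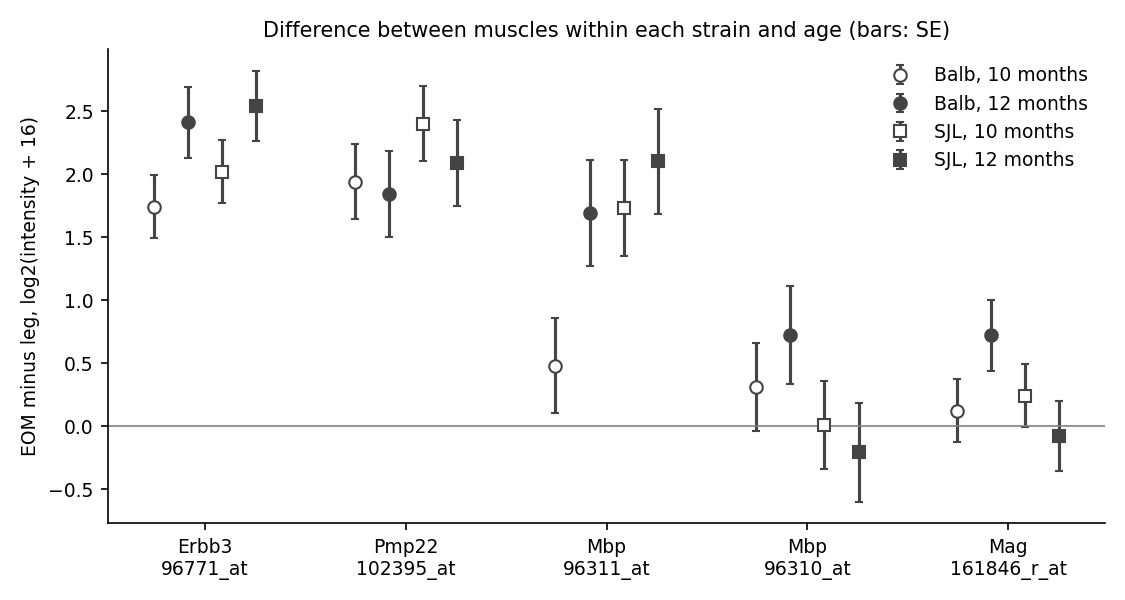
Difference between EOM and leg, as log2(intensity + 16), for each tested probe set, with circles for Balb, squares for SJL, open symbols for 10 months, filled symbols for 12 months and bars for the standard error. Erbb3 (1.74 to 2.54) and Pmp22 (1.84 to 2.40) lie far above 0 in all 4 cases, Mbp 96311_at is lowest in Balb at 10 months (0.48), and Mag (-0.08 to 0.72) and Mbp 96310_at (-0.21 to 0.72) are highest in Balb at 12 months.

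Ordered by group mean, Erbb3 ran from SJL EOM at 10 months (2953.5 ± 569, SD, n = 3) through SJL EOM at 12 months (2934.9 ± 145, n = 2), Balb EOM at 12 months (2431.5 ± 217, n = 2) and Balb EOM at 10 months (2354.2 ± 352, n = 3) to the leg groups. Those followed at 722.5 ± 182 (SJL, 10 months), 696.6 ± 138 (Balb, 10 months), 498.7 ± 112 (SJL, 12 months) and 449.7 ± 96.3 (Balb, 12 months), with n = 3 each. Neighbours in this order overlapped except between SJL EOM at 12 months and Balb EOM at 12 months, and between Balb EOM at 10 months and SJL leg at 10 months. Pmp22 ran from 11627.0 ± 2843 in SJL EOM at 12 months (n = 2) to 1834.3 ± 474 in Balb leg at 10 months (n = 3), with SJL above Balb at each age in EOM. Its neighbours were apart only between Balb EOM at 10 months (6948.3 ± 901, n = 3) and SJL leg at 12 months (2682.2 ± 248, n = 3), and between the latter and Balb leg at 12 months (2190.7 ± 39.3, n = 3). For Mbp 96311_at, from 3783.3 ± 917 in Balb EOM at 12 months (n = 2) to 824.6 ± 77.8 in SJL leg at 12 months (n = 3), all neighbours overlapped. The 4 EOM groups still held its 4 highest means.

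Between strains, none of the 4 genes passed within leg, within EOM or in the difference of the EOM against leg effect. Of all probe sets tested, 0.736% were higher and 0.679% lower in SJL leg than in Balb leg, 0.368% and 0.564% in EOM, and 0% and 0.092% for the difference of effects. In leg, Mbp 96311_at differed by -0.61 (SE 0.27, adjusted p = 0.519). In EOM, Pmp22 was 0.49 (SE 0.24, adjusted p = 0.629) above Balb in SJL and Erbb3 0.29 (SE 0.20, adjusted p = 0.826). The EOM against leg difference of Mbp was 0.83 (SE 0.40, adjusted p = 1) larger in SJL than in Balb.

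On the 18 arrays, where the residual spread was smaller, 3 of these strain differences passed. Mbp 96311_at was lower in SJL leg (-0.83, SE 0.15, adjusted p = 0.00246), with 4.11% of all probe sets lower there. Pmp22 was higher in SJL EOM (0.49, SE 0.13, adjusted p = 0.0319), with 3.75% of all probe sets higher. The EOM against leg difference of Mbp 96311_at was larger in SJL (1.15, SE 0.23, adjusted p = 0.0144), with 0.759% of all probe sets higher. The second Mbp probe set, 96310_at, had the opposite sign in both comparisons and passed in none of 11 alternative fits, the 18 arrays among them. In these fits its strain difference in leg was 0.02 to 0.16. Its EOM against leg difference in SJL minus that in Balb was -0.63 to -0.19. Leaving out only replicate 1 of 10-month Balb leg, at 729.0 the lowest Balb leg array of Mbp, gave -0.88 for Mbp in leg (adjusted p = 0.0457). The calls of Erbb3, Pmp22 and Mbp in EOM against leg in each strain were kept on the 18 arrays, where 18.4% of all probe sets were higher in Balb and 17.1% in SJL, with Erbb3 at 2.08 and 2.32, Pmp22 at 1.92 and 2.43 and Mbp at 0.89 and 2.04 in Balb and SJL.

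With age, the values as scaled by the authors gave lower levels at 12 than at 10 months for Erbb3 in leg (-0.56, SE 0.18, adjusted p = 0.0174) and for Mag in leg (-0.68, SE 0.18, adjusted p = 0.00638). Mbp 96310_at was lower in leg (-1.22, SE 0.25, adjusted p = 0.000833) and in EOM (-1.12, SE 0.28, adjusted p = 0.0064). Both falls of Mbp 96310_at also passed on the 18 arrays and after each array was centred on its median (-0.79, adjusted p = 0.0161, in leg and -0.83, adjusted p = 0.0327, in EOM). Mbp 96311_at in leg differed by -0.28 (SE 0.27, adjusted p = 0.423), and it was lower on the 18 arrays (-0.60, SE 0.15, adjusted p = 0.0033), where 34.2% of all probe sets were lower. After centring it differed by 0.15 in leg (adjusted p = 0.645) and was higher in EOM (0.79, adjusted p = 0.0402). Pmp22 in leg differed by 0.45 (SE 0.21, adjusted p = 0.107), and by 0.76 (adjusted p = 7.39e-05) on the 18 arrays, where 27.3% of all probe sets were higher. In leg, 27% of all probe sets were lower and 11.5% higher at 12 months, and after each array was centred on its median this turned to 1520 lower and 2637 higher, from 2349 and 1000. In EOM, 19.7% were lower and 7.91% higher, and the split went from 1711 lower and 688 higher to 1108 and 1581. Centred in this way, Erbb3 in leg differed by -0.14 (adjusted p = 0.559), Mag in leg by -0.25 (adjusted p = 0.227) and Pmp22 in leg by 0.87 (adjusted p = 0.00456). Since the medians of the arrays do not overlap between ages, age and whatever else separates these arrays cannot be told apart. The difference of the EOM against leg effect between ages did not pass for any of the 4 genes, with 0.0115% of all probe sets higher and 0% lower, and was 0.60 (SE 0.27, adjusted p = 0.901) for Erbb3. It passed for Mbp 96311_at on the 18 arrays (0.86, SE 0.23, adjusted p = 0.0395), with 2.59% of all probe sets higher. For Mbp 96310_at it was -0.09 to 0.11 over 10 alternative fits and passed in none.

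Other Schwann cell genes, from a list of 13 with 7 tested, also had higher levels in EOM, with 5 calls in Balb, 4 in SJL and none lower. On the 18 arrays 6 passed in each strain. Sox10, the factor that sets Schwann cell identity, rose by 1.10 (SE 0.20, adjusted p = 0.00116) in Balb and 1.08 (SE 0.20, adjusted p = 0.00206) in SJL. Its values were 323.3 to 1956.9 on leg arrays and 1211.1 to 3166.3 on EOM arrays. Egr2, the factor that turns on myelin genes, rose by 1.23 in each strain (SE 0.21, adjusted p = 0.000757 in Balb and 0.00103 in SJL). S100b, a calcium-binding protein used as a Schwann cell marker, rose by 1.08 (SE 0.34, adjusted p = 0.0449) and 1.91 (SE 0.34, adjusted p = 0.00143). Its 10 EOM arrays, at 351.0 to 721.0, lay above all 12 leg arrays, at 56.4 to 297.5, as in 1.38% of all probe sets tested. The dim filter used the mean over all arrays, and S100b was dim in SJL leg (median 149.45). Nab1, a partner protein of Egr2, rose in Balb (1.24, adjusted p = 0.00596) and differed by 0.78 in SJL (adjusted p = 0.0919). Lgi4, a secreted protein of myelinating glia, rose in Balb (1.49, adjusted p = 0.0464) and differed by 1.17 in SJL (adjusted p = 0.146). Dhh, a hedgehog ligand of Schwann cells, differed by 0.55 in Balb (adjusted p = 0.067) and rose by 0.80 in SJL (adjusted p = 0.0107). Nab2, another partner of Egr2, differed by 0.67 in Balb (adjusted p = 0.378) and 0.57 in SJL (adjusted p = 0.523). The median of the 7 was 1.10 in Balb and 1.08 in SJL.

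Of the 2 other myelin protein genes tested, Mal, a membrane raft protein of myelin, rose by 1.92 (SE 0.28, adjusted p = 0.000154) in Balb and 1.34 (SE 0.28, adjusted p = 0.00438) in SJL. Epithelia are known to make Mal as well. Gjb1, the gap junction protein of uncompacted myelin, differed by 0.33 and -0.09 (adjusted p = 0.521 and 0.913). The neuregulin and ErbB list had 1 gene tested, Egfr, at -0.90 (adjusted p = 0.236) and -0.58 (adjusted p = 0.52), so neither the ligand nor the partner of Erbb3 is described. No gene of myelin lipid synthesis was bright enough to test.

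Of 10 listed genes of the axon, all with a probe set, 5 were bright enough to test, and the others are not described. The tested ones gave no call, 0 of 5 in Balb and 0 of 5 in SJL, with medians of 0.31 and 0.16. Their largest difference was that of the neuronal enzyme Uchl1 in Balb (0.82, adjusted p = 0.158), which in SJL was -0.01 (adjusted p = 0.994). Calls on the 18 arrays were 0 in Balb and 1 in SJL, Stmn2, a protein of growing neurites (0.47, adjusted p = 0.00527). Of 3 axon-glia junction genes tested, the adhesion molecule Ncam1 rose in Balb (0.56, adjusted p = 0.0432) and differed by 0.50 in SJL (adjusted p = 0.0872). Of 10 genes of the neuromuscular junction tested, 4 rose in Balb and 2 in SJL, and 7 and 5 on the 18 arrays. Differences were above 0 for 8 of these genes in Balb and for 10 in SJL. Chrna1, the alpha subunit of the muscle acetylcholine receptor, rose by 2.36 (SE 0.29, adjusted p = 2.63e-05) and 1.80 (SE 0.29, adjusted p = 0.000535). The receptor subunits Chrnd (1.88, adjusted p = 0.0156) and Chrnb1 (0.99, adjusted p = 0.00827) and the synaptic organizer Agrn (1.16, adjusted p = 0.000981) rose in Balb, and the subunit Chrne (0.95, adjusted p = 0.0321) rose in SJL. Chrnd was dim in leg (median 97.75).

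**Figure D4:**
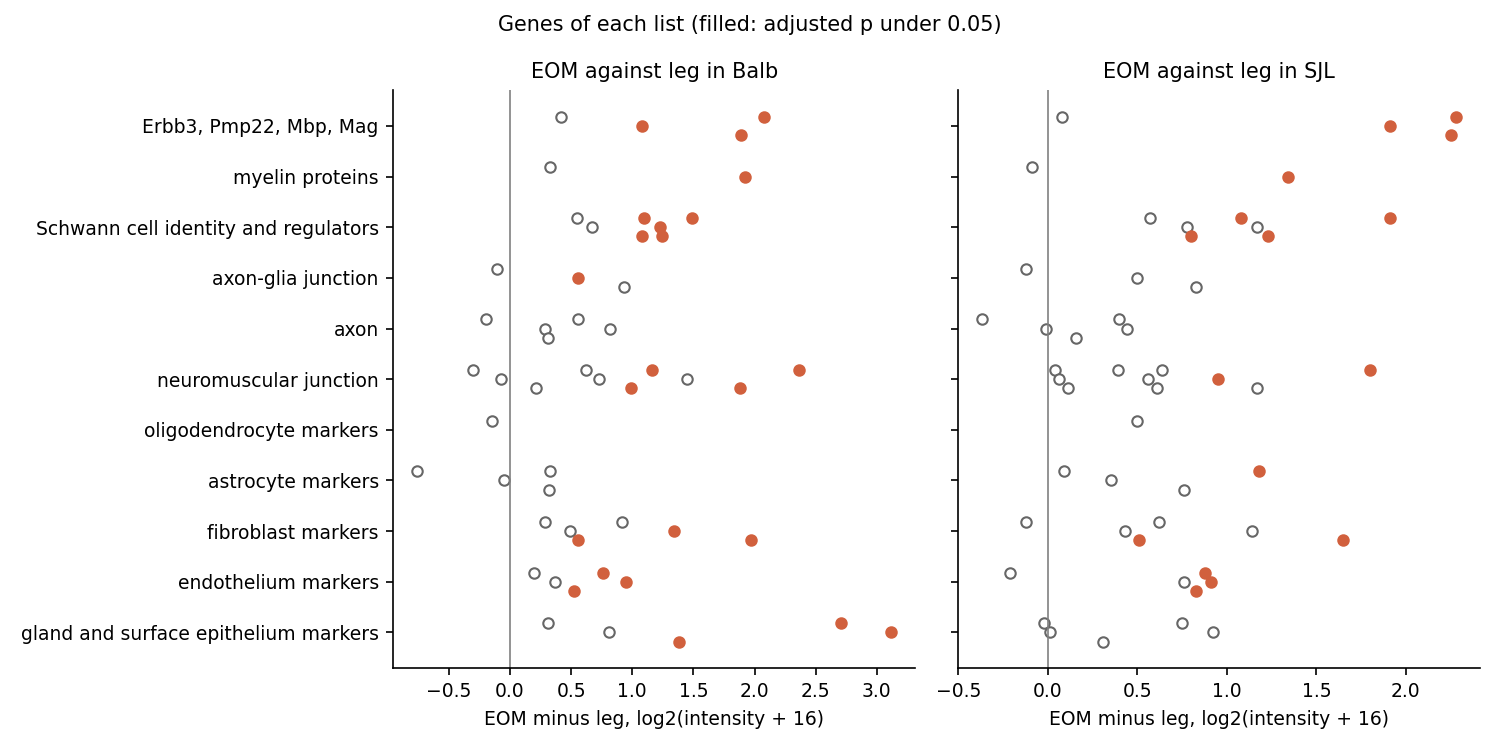
Difference between EOM and leg, as log2(intensity + 16), for each tested gene of the lists named at the left, in Balb and in SJL, with filled points for an adjusted p under 0.05. Points of the Schwann cell list lie to the right of 0 in both strains, with medians of 1.10 and 1.08, axon genes have medians of 0.31 and 0.16 with none passing, and 3 of 5 epithelial genes pass in Balb and 0 in SJL.

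Markers of other cells were read on the same arrays, since Mbp, Mag and Cnp are also made by oligodendrocytes, the myelinating glia of the brain and optic nerve. Of 8 oligodendrocyte markers, 4 had a probe set and 1 was bright enough to test. That one, Mobp, a myelin protein of the central nervous system, gave 57.3 to 532.9 on leg arrays and 90.3 to 839.5 on EOM arrays, and differed by -0.15 in Balb (adjusted p = 0.886) and 0.50 in SJL (adjusted p = 0.651). Of 4 astrocyte markers tested, 0 rose in Balb and Aldoc alone rose in SJL (1.18, adjusted p = 0.0488), joined on the 18 arrays by Aqp4 (0.62, adjusted p = 0.045). None of 2 melanocyte or 2 retina and lens markers passed in either strain, and on the 18 arrays the lens protein Cryaa was lower in Balb EOM (-1.13, adjusted p = 0.0438). No marker tested was at 0 on any array, which does not by itself show that its cell type was present.

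Markers of tissue around the nerve also moved with muscle. Of 6 fibroblast markers, 6 had a difference above 0 in Balb and 5 in SJL. Of these markers, 3 rose in Balb and 2 in SJL, and 5 in each strain on the 18 arrays. Their summed intensity was 40189.1 to 52006.3 in Balb leg, 71483.3 to 92724.9 in Balb EOM, 43424.0 to 68170.7 in SJL leg and 67200.1 to 109837.9 in SJL EOM. Lum, a matrix proteoglycan, rose by 1.97 (adjusted p = 0.000349) and 1.65 (adjusted p = 0.00229). Of 5 endothelial markers 3 rose in each strain, and 4 on the 18 arrays, such as Flt1, a receptor for vascular growth factor (0.52, adjusted p = 0.0356, and 0.83, adjusted p = 0.00208). Endothelial differences were above 0 for 5 markers in Balb and 4 in SJL. Gland and surface epithelium (3 of 5), macrophage (3 of 4) and adipocyte markers (2 of 3) rose in Balb, and 0 of each in SJL. In SJL, 4 epithelial, 2 macrophage and 3 adipocyte markers had a difference above 0. Among those that rose, Krt8 (epithelium) and Adgre1 (macrophage) were dim in leg, with medians of 117.65 and 124.25. On the 18 arrays the counts in Balb were 3, 3 and 2, while in SJL the epithelial mucin Muc1 (1.37, adjusted p = 0.000863) and the adipocyte hormone Adipoq (0.89, adjusted p = 6.45e-05) rose, and the macrophage protein Cd68 fell (-0.49, adjusted p = 0.0372). The epithelial sum was 1373.5 to 4576.4 in Balb leg and 5875.1 to 9136.3 in Balb EOM, and 1350.7 to 5020.7 and 2096.3 to 5114.8 in SJL. The difference of the muscle effect between strains passed for no gene of these lists. On the 18 arrays, where 1.04% of all probe sets were lower, it passed for Muc1 (-2.04, adjusted p = 0.00949), the macrophage lysozyme Lyz2 (-1.81, adjusted p = 4.56e-05) and, among neuromuscular junction genes, the esterase Ache (-1.89, adjusted p = 0.0205), each with the smaller EOM against leg difference in SJL. None of 5 skeletal muscle markers passed in either strain, and on the 18 arrays 3 rose in Balb and 2 in SJL, with the muscle actin Acta1 higher in EOM by 1.47 (adjusted p = 0.0127) and 1.57 (adjusted p = 0.00858). On all 22 arrays Acta1 differed by 1.73 and 2.49 (SE 1.19), and the myosin Myh4 by 2.37 and 2.78 (SE 1.73). Leg arrays spread widely, from 616.9 to 78675.1 for Acta1 and from 0.7 to 107360.7 for Myh4. The part of these tissues in the rise of Erbb3, Pmp22 and Mbp was not tested.

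Leg and EOM arrays formed separate groups for Erbb3 and Pmp22, so their array-by-array relation was read within each muscle, on the log2 scale. Over the 10 EOM arrays Erbb3 and Pmp22 correlated at r = 0.85, and over the 12 leg arrays at -0.04. Mbp 96311_at correlated with Erbb3 at -0.15 in both muscles, and with Pmp22 at 0.13 in EOM and -0.40 in leg. The shared rise of Erbb3, Pmp22 and Mbp 96311_at in EOM was thus a difference between muscles. Among these probe sets, only Erbb3 and Pmp22 in EOM ran together within a muscle. The second Mbp probe set, 96310_at, correlated with Erbb3 at 0.74 in leg and 0.04 in EOM. Mag correlated with Mbp 96310_at in leg (0.71) and EOM (0.66), and with the dim Cnp (0.87 and 0.54). The points share arrays, strains and ages, and the values are a description of them.

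**Figure D5:**
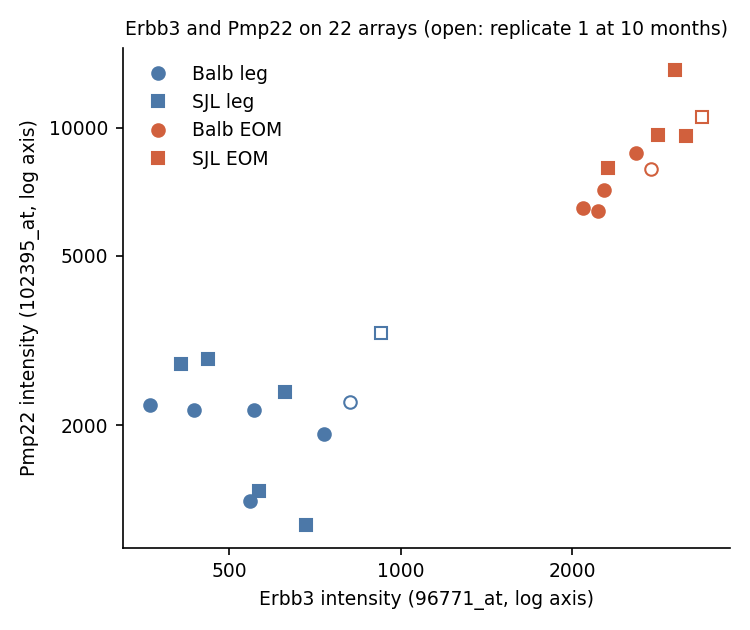
Intensity of Pmp22 against Erbb3 on each of the 22 arrays (log axes), with circles for Balb, squares for SJL, leg in blue, EOM in orange and open symbols for replicate 1 at 10 months. The leg arrays (Erbb3 up to 921.6, Pmp22 up to 3303.4) and the EOM arrays (from 2088.2 and 6392.2) form separate clouds, with r = 0.85 within EOM and -0.04 within leg.

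By Pearson correlation over the 22 arrays with tested probe sets of other single genes, the pattern of Erbb3, which the muscle difference shapes, was most like Fam102a (0.97), Abca4 (0.95) and Dhrs7 (0.95). Pmp22 was most like Peg3 (0.96), Lmo2 (0.95) and Gart (0.94), and Mbp most like Fhl2 (0.89), Slc41a1 (0.86) and Tpsb2 (0.85). Mag was most like Hps1 (0.91), Fzd3 (0.89) and Rae1 (0.88), and the dim Cnp most like Mag (0.75), Tead2 (0.74) and Ncam1 (0.73). On the 18 arrays Fam102a remained the nearest to Erbb3 (0.97), while the genes named for Pmp22 ranked 14, 20 and 5 and those for Mbp ranked 16, 24 and 79.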

How the data were processed

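Total RNA of 22 muscle samples was measured on Affymetrix arrays with the manufacturer's standard protocol, per the labels. The deposited values are linear intensities, 1 per probe set and array, and how probes were corrected and combined is not given in the sources used here. The 2%-trimmed mean of each array was 1500.8 to 1501.1, so the authors had scaled the intensities. Of 12488 probe sets, 66 controls were set aside, 10833 had 1 gene symbol, 396 several and 1193 none. Symbols came from the platform annotation, and 10817 of the single-symbol probe sets matched a GRCm38.p6 gene by gene ID. The number of arrays limits the precision.

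Values were taken as log2(intensity + 16), and the dimmest 30% of probe sets by mean (under 7.72) were left out, leaving 8695. That mean was over all 22 arrays, so a gene dim in leg could be tested through its EOM level. This may hold for Chrnd, Krt8 and Adgre1 and, in SJL, for S100b. The 5 tested probe sets of Erbb3, Pmp22, Mbp and Mag had means above the limit on leg arrays alone. A mean for each of 8 groups was fitted with limma 3.58.1 in R 4.3.3, with intensity-dependent empirical Bayes variances, 14 residual and 3.63 prior degrees of freedom, two-sided tests and Benjamini-Hochberg adjustment within each comparison. Strain and muscle differences weight both ages equally. The fit was tested on simulated data. Figures used matplotlib 3.10.9 in Python 3.11.15.

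The genes and lists were chosen with earlier results of these data known. All probe sets of the 6 genes are named, the brightest standing for the gene. Of each list, up to 5 genes that passed in EOM against leg in either strain and had the smallest adjusted p could be named, and for likeness the 3 closest probe sets. Genes named beyond this rule because a count was small (Egfr, Gjb1, Uchl1, Mobp), as a list's last tested genes (Lgi4, Nab2) or for their calls on 18 arrays (Stmn2, Aqp4, Cryaa, Cd68, Ache, Acta1) were chosen after their values were seen. Myh4, named for its spread, was also chosen after its values were seen. Pmp22, Mag, Cnp and Prx were matched to promoter windows by symbol. Same-numbered arrays were checked for pairing by the correlation of their deviations from group means, which was -0.081 to 0.014 at 12 months. At 10 months it was 0.293 to 0.759, but -0.015 to 0.017 without the replicate 1 arrays, so at 10 months it rests on replicate 1. Elsewhere same-numbered arrays did not deviate together, which cannot show whether they came from the same animal. Alternatives were other pseudocounts, no filter, median centring, quantile normalization, only the groups compared, a replicate block, array quality weights, 18 arrays without replicate 1 at 10 months, and each array left out. The 18 arrays with quantile normalization, and a replicate block among the 10-month arrays for muscle and strain differences, were added after seeing the data.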

Additional observations from a re-analysis of the deposited data

How the results depend on the processing

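The calls of Erbb3, Pmp22 and Mbp 96311_at in EOM against leg kept their direction and passed in both strains under all 11 alternatives other than single arrays left out. With single arrays left out, Erbb3 and Pmp22 passed 22 of 22 times in each strain, and Mbp 22 of 22 in SJL and 21 of 22 in Balb. Fitted on only the groups compared, 1 gene rose in Balb at 10 months and 0 in SJL at 10 months. With 1 array left out, 1 to 3 genes rose in Balb at 12 months. Shares of all probe sets called in these fits within 1 age are not given here, so the counts describe the calls only.

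Under 18 arrays, array quality weights and 18 arrays with quantile normalization, 1 gene was lower in SJL leg, 1 higher in SJL EOM and 1 higher in the difference of the muscle effect between strains. On 18 arrays the matching shares of all probe sets were 4.11%, 3.75% and 0.759%. Shares for the other fits are not given here. With 1 array left out, 0 to 1 gene was lower in SJL leg. Age calls of Erbb3, Mag and Pmp22 in leg depended on scaling, while Mbp 96310_at was lower in leg and in EOM under all 10 alternatives and 22 of 22 times with 1 array left out. Pmp22 was the 1 gene higher at 12 months under median centring, 18 arrays, array quality weights and 18 arrays with quantile normalization, and 0 to 1 with 1 array left out. The 2 genes lower in leg became 0 under median centring and quantile normalization and 1 (Mbp 96311_at) on 18 arrays with quantile normalization, and 3, with Mbp 96311_at, on 18 arrays (-0.60) and under array quality weights (-0.51). In EOM, 1 was higher under median centring, 1 lower (Mag) under array quality weights, and 0 to 1 lower with 1 array left out. On 18 arrays the muscle effect of 1 gene, Mbp, was larger at 12 months.

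The replicate block over both ages gave 869 higher and 524 lower probe sets in Balb, made 1 gene (Mag) lower with age in EOM, and put Erbb3 in EOM with age at -0.00. The block among the 10-month arrays alone, where same-numbered arrays deviate together through replicate 1, changed no call of Erbb3, Pmp22, Mbp or Mag between muscles or strains, and gave 1465 higher and 1083 lower probe sets in Balb and 1174 and 863 in SJL.

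Small differences that did not pass changed sign. Mag in SJL was -0.01 under median centring and quantile normalization, -0.05 on 18 arrays with quantile normalization, and -0.02 to 0.21 with 1 array left out. Mbp 96310_at in SJL was 0.05 on 18 arrays, 0.09 under array quality weights and -0.19 to 0.04. Within 1 age, Mbp 96311_at in Balb at 10 months was -0.05 to 0.80 with 1 array left out. Mbp 96310_at in Balb at 10 months was -0.02 on 18 arrays, -0.01 with weights, -0.08 on 18 arrays with quantile normalization and -0.08 to 0.55, and in SJL at 10 months -0.03 under median centring and quantile normalization and -0.18 to 0.29. Mag in SJL at 12 months was -0.27 to 0.12. Pmp22 between strains in leg was -0.01 on 18 arrays and with weights, -0.05 on 18 arrays with quantile normalization and -0.10 to 0.27, and Erbb3 -0.00 to 0.17. With age in leg, Mbp 96311_at was 0.15 under median centring and Erbb3 0.03 on 18 arrays with quantile normalization, and Erbb3 in EOM was -0.05 to 0.09. The macrophage gene Lyz2 in SJL was 0.08 on 18 arrays, 0.06 with weights, 0.12 on 18 arrays with quantile normalization and -0.18 to 0.12. The cause of these changes was not tested.

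Over all probe sets, EOM was called higher for 758 and lower for 423 in Balb, and for 534 and 297 in SJL. On 18 arrays Balb had 1601 and 1300 and SJL 1487 and 1193, and with array quality weights 1694 and 1217, and 1412 and 1014. Under median centring Balb had 428 and 694 and SJL 407 and 376, which moved the median difference in Balb from 0.105 to -0.087, far less than the differences of Erbb3 and Pmp22. Quantile normalization gave 532 and 438, and 421 and 294. On only the groups compared, SJL gave 310 and 177. Over the 12 comparisons, 98 counts in 1 direction grew past 1.5 times and 17 fell below that ratio under these alternatives. Strain in leg went from 64 higher and 59 lower to 354 and 357 on 18 arrays, and strain in EOM from 32 and 49 to 326 and 392.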
